A study of Rattus norvegicus with 10 samples.

Results

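The regions described here were the most crowded stretches of the rat genome in a methyl-capture experiment. A region was a member when at least 60 other regions of the count table had their midpoint within 50 kb of its own midpoint, on autosomes only. The rule used positions and no tag count, although the regions themselves were called from differences between pairs of libraries. It was met by 13328 of 571404 autosomal regions (574544 regions in the whole table, chromosome X included). Members had 60 to 82 such neighbours with a median of 63, against a median of 32 for all autosomal regions. Members of a chromosome whose midpoints followed each other at 50 kb or less were joined, which gave 400 stretches of RN4, the genome build of all positions given here.

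In mammals DNA methylation is found mainly at CpG sites, and these are unevenly spread. GC-rich, gene-rich blocks of a chromosome hold many CpG sites and AT-rich, gene-poor blocks hold few, and outside CpG islands most of them carry a methyl group. Methyl-capture binds sheared DNA fragments through a methyl-CpG binding domain, so it recovers fragments that carry methylated CpG sites, and tag counts report the amount of captured DNA rather than the state of single cytosines.

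The study asked which methylation differences accompany epilepsy that follows status epilepticus (SE) evoked by stimulating the amygdala. All animals were male Sprague-Dawley rats with an electrode in the left lateral amygdala. SE rats received trains of pulses for 30 min (400 µA, 60 Hz), and their SE was ended with diazepam, whereas controls of the same age carried electrodes without stimulation. Left hippocampal tissue with CA3 and dentate gyrus, labelled as dorsal hippocampus, was taken 3 months after SE, and each library came from 1 rat. It is a mixed tissue, so a shift in its mix of cells and a shift of methylation within cells cannot be told apart. Control rats 1, 3, 4 and 5 and SE rats 6, 8, 9 and 10 were compared (n = 4 per group), and control rat 2 and SE rat 7, which the labels mark as discarded, served as an alternative.

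Total tag counts were 5499370 to 7179519 in the 8 libraries compared. SE rat 7 stood apart with 14655629 tags and with no tag in 10.1% of the autosomal regions outside the densest stretches, against 0.372% to 0.820% in the 8 libraries. Within the densest stretches it had no tag in 1.61% of regions, against 0.105% to 0.585%. Control rat 2 had 7154696 tags, and 0.833% of members and 1.85% of the other regions were without a tag there. Each library came from 1 rat and was counted as a separate sample. Every pair of the 8 libraries differed over the members by more than counting error, with a chi-square per degree of freedom of at least 1.19. The regions were called from differences between pairs of libraries, so some of this spread may be built into the table.

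Dense regions were concentrated on a few chromosomes. All 20 autosomes held members, and chromosome 12 held 2177 of them in 41 stretches, which was 12.5% of its regions. Chromosome 20 followed with 1155 members or 7.11% of its regions in 28 stretches, and chromosome 3 with 1537 members or 3.88% in 30 stretches. Chromosome 5 held 1124 members (3.11%, 34 stretches). On chromosome 2, one of the longest rat chromosomes, only 270 regions or 0.593% were members.

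**Figure D1:**
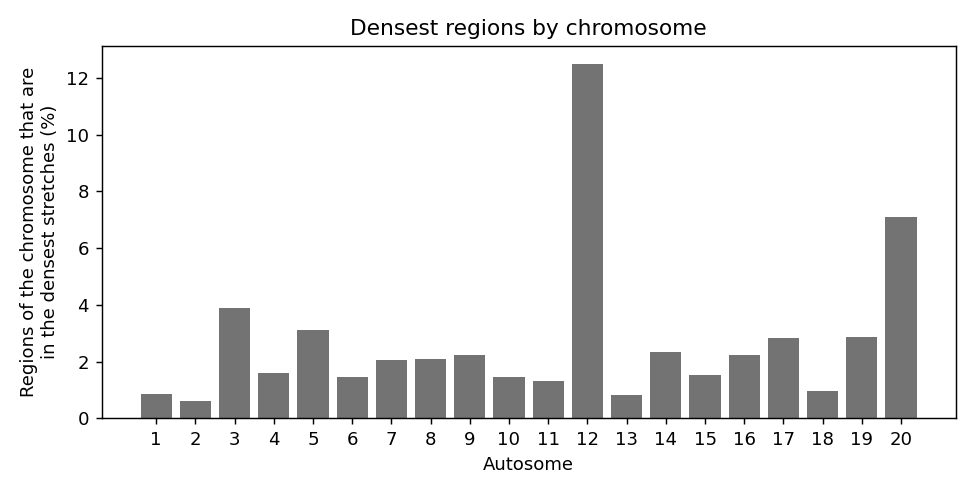
Share of the regions of each autosome that had 60 or more neighbours within 50 kb (percent, vertical axis) for the 20 rat autosomes (horizontal axis). Chromosome 12 stands highest with 12.5%, followed by chromosome 20 with 7.11%, and chromosome 2 is lowest with 0.593%.

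Members also lay toward one end of many chromosomes. Counted from the first to the last region of a chromosome, 42.2% of members were in the last 10% of the length, against 13.1% of the other autosomal regions. The first 10% held 9.97% of members and 9.43% of the others. The share in the last 10% was 87.5% on chromosome 8, 82.4% on chromosome 3 and 79.9% on chromosome 10, but 1.50% on chromosome 17 and 0.260% on chromosome 20. On chromosome 20 the 3 largest stretches lay 42.5 to 49 Mb before the last region instead.

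The stretches covered 23.4 Mb in all and were 0.242 to 513 kb long with a median of 44.1 kb. They held a median of 21.5 members. The 24 stretches with 100 or more members held 3330 regions or 25% of members, the 70 stretches with 50 to 99 held 34.8%, and the 180 stretches with 10 to 49 held 36.0%. Another 106 stretches had 2 to 9 members (539 regions in all), and 20 consisted of 1 region. In the median stretch 38.6% of the length was covered by members.

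The 24 largest stretches were spread over 10 chromosomes. Chromosome 3 held the largest, with 345 members at chr3:160370699-160884036, and 3 more beyond it at chr3:163153610-163483821 (148 members), chr3:163711709-163986627 (170) and chr3:164267543-164508817 (127). Chromosome 12 held 7 of them. These were chr12:6527009-6680762 (101 members), chr12:7198159-7488811 (167), chr12:32964912-33117151 (105), chr12:35720400-35901537 (131), chr12:40552126-40697828 (102), chr12:41827926-42035485 (150) and chr12:44273090-44485226 (119). Chromosome 20 held 3, at chr20:6139143-6303051 (106 members), chr20:9100303-9283624 (125) and chr20:12466161-12786140 (196), and chromosome 5 held 3, at chr5:160859692-161071524 (114), chr5:165939081-166084441 (100) and chr5:169626058-169816351 (134). The other 7 stretches of this size lay on chromosomes 4, 6, 8, 10, 14 and 19. Chromosome 8 had 2 of them, at chr8:123824088-124001370 (112 members) and chr8:124349221-124683088 (167), and the rest were chr4:181916384-182169841 (147), chr6:137045767-137296216 (107), chr10:102951016-103136229 (127), chr14:105053134-105216837 (106) and chr19:52286277-52476283 (124).

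Dense regions differed from others in length more than in how heavily they were tagged. Their median length was 525 bp with quartiles of 395 and 762 bp, against 457 bp with quartiles of 360 and 602 bp for the other autosomal regions. Regions of 1 kb or more made up 12.8% of members and 5.28% of the others. The median gap to the next region was 537 bp for members and 1664 bp for the others. Members held a median of 9.88 tags per library against 8.75, which was 18.8 tags per kb against 19.1. The very heavily tagged regions of the table lay elsewhere, since the highest mean count of a member was 85 tags and that of the other regions 4899.

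The limit of 60 neighbours fell on a gradual slope. The 8651 regions with 60 to 64 neighbours had a median length of 517 bp and a median of 9.75 tags per library, and the 17774 regions with 55 to 59 neighbours had 508 bp and 9.75 tags. Their median log2 fold changes (SE against control) were 0.09 and 0.08. At 70 or more neighbours there were 1204 regions, with a median length of 552 bp and a median log2 fold change of 0.12.

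SE and control rats were first compared by the share of autosomal tags that fell in members. This share was 2.69%, 2.54%, 2.45% and 2.53% in control rats 1, 3, 4 and 5, and 2.76%, 2.68%, 2.77% and 2.81% in SE rats 6, 8, 9 and 10. Controls 3, 4 and 5 lay below every SE rat, but control rat 1 lay just above SE rat 8, so the groups overlapped. The means were 2.55% ± 0.104 and 2.76% ± 0.0574 (SD, n = 4 each), a log2 difference of 0.11 with p = 0.0571 in an exact two-sided permutation test, for which 0.0286 is the smallest p that 4 against 4 allows. The discarded libraries had 2.77% (control rat 2) and 3.60% (SE rat 7). With all 10 libraries the log2 difference was 0.17 (exact permutation test, p = 0.0556).

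The same measure across all levels of local density was graded in each SE rat and in control rats 1, 4 and 5, and nearly flat in control rat 3. Relative to the mean of the 4 controls, the log2 share of members was 0.12, 0.07, 0.12 and 0.14 in SE rats 6, 8, 9 and 10, and the log2 share of the sparsest regions, those with 0 to 9 neighbours, was -0.21, -0.16, -0.27 and -0.31. Control rat 1 went with the SE rats, at 0.08 for members and -0.16 for the sparsest regions. Control rat 4 went the other way, at -0.06 and 0.11. Regions with 20 to 29 neighbours were close to 0 in each of the 8 libraries, from -0.02 to 0.01. The difference of the group means, SE less control, was 0.10 at 50 to 59 neighbours and 0.05 at 30 to 39. It was -0.13 at 10 to 19 and -0.24 at 0 to 9. In these classes the groups did not overlap (exact permutation test, p = 0.0286 each, not adjusted). At 20 to 29 and 40 to 49 they overlapped, as in members (exact permutation test, p = 0.0571 each). The shares of a library add up to a whole, so the classes are not independent. The discarded SE rat 7 had the steepest line of all, from -0.93 to 0.50, and the discarded control rat 2 ran from -0.26 to 0.12, inside the range of the SE rats.

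**Figure D2:**
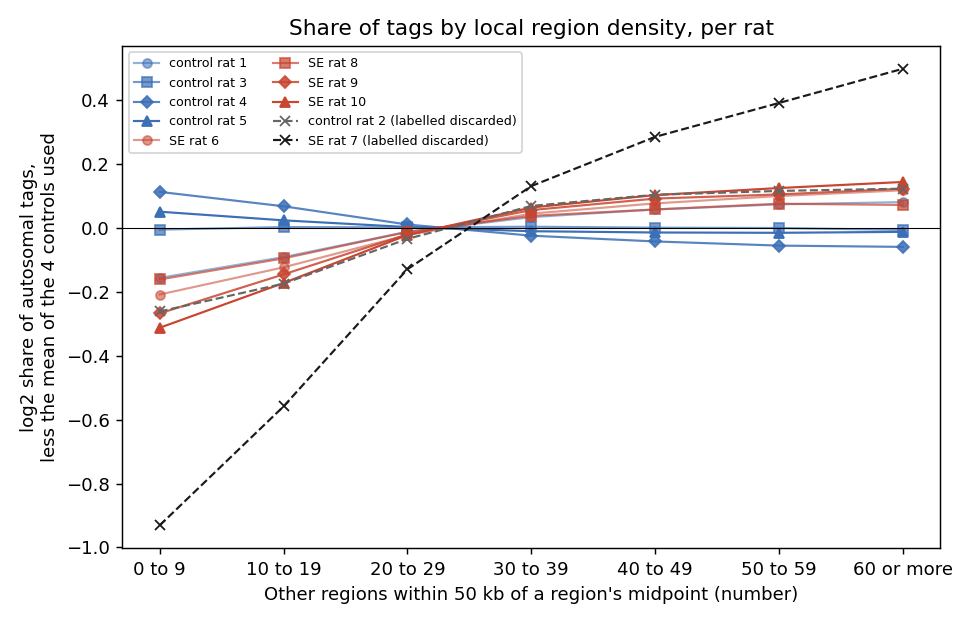
Log2 share of autosomal tags, less the mean of the 4 controls compared (vertical axis), in 7 classes of regions by their number of neighbours within 50 kb (horizontal axis), with 1 line per rat. SE rats and control rat 1 climb from left to right, control rats 4 and 5 descend, control rat 3 is nearly flat, and the dashed lines are the 2 rats labelled discarded, of which SE rat 7 reaches 0.50 in the densest class.

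Densest regions were then set against each other class by 1 ratio of tags per library, with 6 ratios compared. The log2 ratio of tags in members to tags in regions with 0 to 9 neighbours was higher by 0.35 in the mean of SE rats than in that of controls. Against regions with 10 to 19 neighbours the difference was 0.25, against 20 to 29 it was 0.13, against 30 to 39 it was 0.06, and against 40 to 49 it was 0.03. Each of these 5 had p = 0.0571 in an exact permutation test (Benjamini-Hochberg adjusted p = 0.0686, n = 4 per group), since control rat 1 overlapped SE rat 8 in each. The nearest class, with 50 to 59 neighbours, gave a difference of 0.01 (exact permutation test, p = 0.0857). The difference was thus smallest against the regions just less dense than the members and largest against the sparsest.

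Other properties of the libraries moved with the groups. Chromosome X, which is outside the members, took 1.18% ± 0.112 of tags in controls and 0.989% ± 0.0284 in SE rats (SD, n = 4 each), and the groups did not overlap (exact permutation test, p = 0.0286). The discarded control rat 2, with 0.804%, lay below the 4 SE rats compared, and SE rat 7 had 0.599%, so with all 10 libraries the groups overlapped. The 1% of autosomal regions with the highest mean count took 7.67% ± 0.213 and 7.38% ± 0.101 of tags (exact permutation test, p = 0.0571). Their part in the difference of the members was not tested.

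Single members were read from a fit over all regions whose summed count reached the 50th percentile. Of the 13328 members, 7974 passed this filter and 5354 did not. At an unadjusted p below 0.01, the limit of the study, 83 members were higher in SE (1.04% of those tested) and 8 were lower (0.1%). Over all 291987 tested regions the shares were 0.584% higher and 1.07% lower. With the filter left out, so that every member was tested, 124 were higher (0.93%) and 14 were lower (0.105%). Over all 574542 regions of that fit the shares were 0.525% and 0.856%. By edgeR's quasi-likelihood test no member passed a Benjamini-Hochberg adjusted p of 0.05, which 0.000685% (higher) and 0.00548% (lower) of all tested regions passed, and the smallest adjusted p was 0.19 and 436 members had an unadjusted p under 0.05. edgeR's exact test and the Wald test of DESeq2 gave no such member either, with 376 and 185 members at an unadjusted p under 0.05.

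The balance between the directions tipped gradually with density. Among tested regions with 0 to 9 neighbours 0.133% were called higher and 4.81% lower in SE, and among those with 30 to 39 neighbours 0.636% and 0.399%. Regions with 50 to 59 neighbours had 0.869% and 0.167%, next to the 1.04% and 0.1% of members. The median log2 fold change was -0.28 in the sparsest class and 0.10 in members, and 62.2% of tested members were above 0 against 50.3% of all tested regions. When the counts were offset for the trend of each library on local density and mean count, which removes the trend by construction, 34 members were called higher and 32 lower. These were 0.426% and 0.401% of tested members, against 0.553% and 0.682% of all tested regions.

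**Figure D3:**
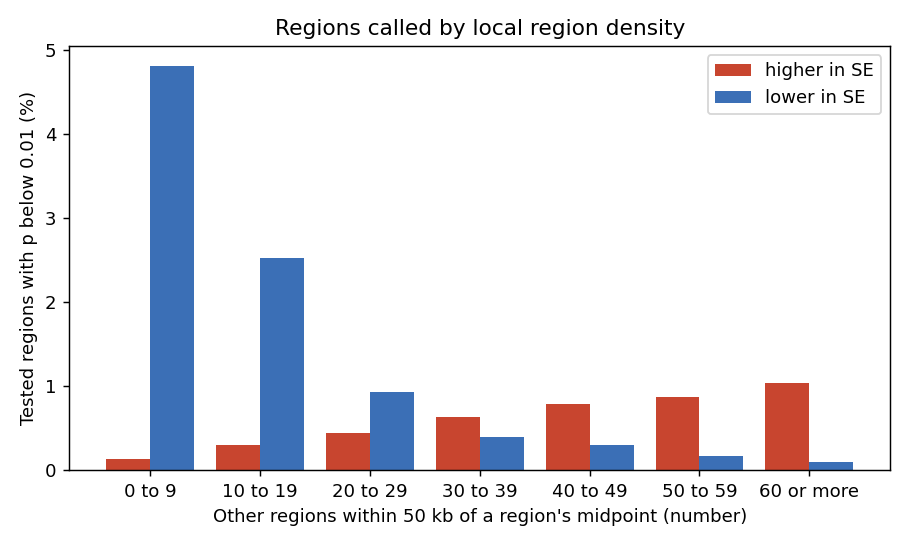
Percent of tested regions with an unadjusted p below 0.01 (vertical axis), higher in SE (red) or lower in SE (blue), in 7 classes of neighbours within 50 kb (horizontal axis). Lower calls shrink from 4.81% in the sparsest class to 0.1% in the densest, while higher calls grow from 0.133% to 1.04%.

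The groups of rats did not overlap in 219 tested members with higher values in SE (2.75%, against 1.69% of all tested regions) and in 64 with lower values (0.803%, against 1.94%). The 83 members called higher had log2 fold changes of 0.53 to 1.55 with a median of 0.91, and 50 of them had groups that did not overlap. The 8 members called lower had values of -0.73 to -1.12. Their counts were small, with a median of 17 tags per library for the former and 14.5 for the latter.

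Called members were scattered rather than gathered in a few places. The 83 higher ones lay in 63 stretches on 18 chromosomes, and the 8 lower ones lay in 8 stretches on 7 chromosomes. No stretch held more than 3 of them. The 5 stretches with 3 were chr3:163711709-163986627, chr12:35720400-35901537, chr12:44273090-44485226, chr19:52286277-52476283 and chr20:6139143-6303051, and each of them had 106 to 170 members. Calls in both directions were held by 3 stretches. Chromosome 12 held 16 higher calls (1.2% of its 1336 tested members), chromosome 3 held 9 (0.98%) and chromosome 20 held 7 (1.0%), close to the 1.04% of all tested members. The share reached 2.68% on chromosome 13, from 3 calls among 112 tested members, and 1.9% on chromosome 19, from 6 among 316. Chromosomes 2 and 11, with 140 and 139 tested members, held none.

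Calls were spread over members of all lengths and positions. The 1700 members of 1000 bp or more were all tested, with 24 called higher (1.41%) and 2 lower. Of the 3645 members from 600 to under 1000 bp 3492 were tested, with 34 higher (0.974%) and 4 lower, and of the 4551 from 400 to under 600 bp 2509 were tested, with 23 higher (0.917%) and 2 lower. Of the 3432 members under 400 bp only 273 could be tested, with 2 called higher (0.733%) and none lower. Members in the last 10% of a chromosome had a median log2 fold change of 0.11 and 38 higher calls among 3412 tested (1.11%), and the other members had 0.09 and 45 among 4562 (0.986%). Over all tested regions 0.584% were called higher.

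Summing tags over all members of a stretch lowered the counting error, and single stretches then passed an adjusted threshold. In edgeR's quasi-likelihood test over the 400 stretches, with a Benjamini-Hochberg adjusted p of 0.05 as the limit, 39 were higher in SE (9.75%) and 0 were lower (0.0%), with 100 and 2 at an unadjusted p under 0.05. DESeq2 called 25 higher and none lower. The log2 fold changes ran from -0.74 to 0.67 with a median of 0.08, and 297 of 400 were above 0. The extremes were stretches of 1 and 2 members, and all 24 stretches with 100 or more members were between 0.00 and 0.25. Of the 400 stretches, 46 were higher and 1 was lower in SE without overlap of the groups. No such count is given here for stretches of lower density. Among single tested regions, those with 50 to 59 neighbours had a like tilt (2.48% higher, 0.923% lower) to members (2.75% and 0.803%).

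The count of 39 rested on the choice of libraries and on whether the common shift of the members was scaled out. With all 10 libraries none passed (53 higher and 1 lower at an unadjusted p under 0.05 by edgeR), although 344 of 400 stretches were above 0. Scaled to the tags each library had in all members, so that their common shift was taken out, 8 stretches were higher, 4 were lower and 186 of 400 were above 0. Scaled by library totals 39 were higher, and by the upper quartile 47, with none lower in either. Without control rat 1 there were 90 higher stretches, and without control rat 3, 4 or 5 there were 15, 19 and 17. Without SE rat 6, 8, 9 or 10 there were 22, 39, 26 and 17. In no case was a stretch called lower when 1 rat was left out.

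The order of rats within stretches was uneven. Control rat 4 had the lowest value of the 8 rats in 115 of the 400 stretches, control rat 5 in 88 and control rat 3 in 67. Control rat 1 was lowest in only 23 and highest in 46. SE rats 9 and 10 were highest in 97 and 91 stretches, and SE rat 8 was highest in 38 and lowest in 36.

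**Figure D4:**
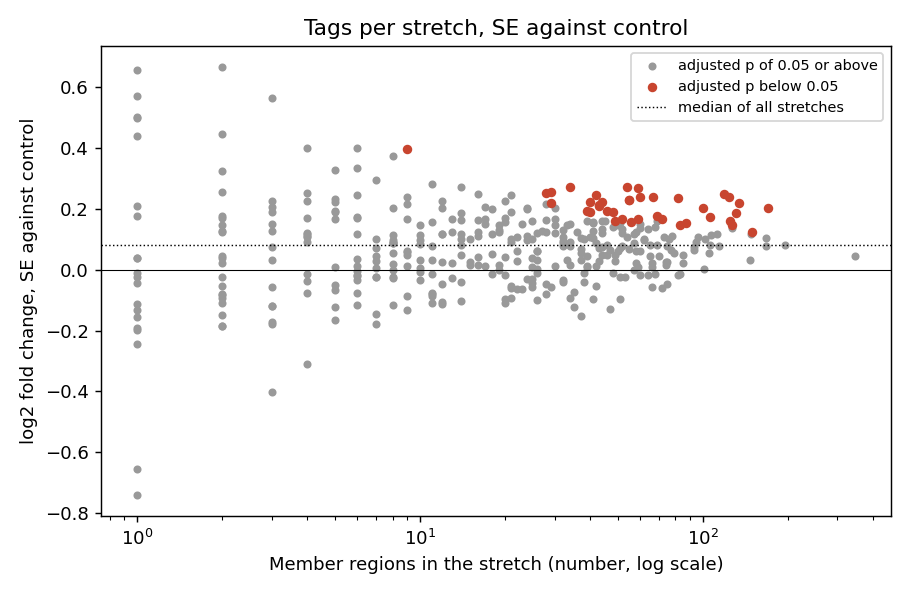
Log2 fold change of summed tags, SE against control (vertical axis), against the number of members of a stretch (horizontal axis, log scale) for the 400 stretches, with those of adjusted p below 0.05 in red and the median of all stretches dotted. Values spread from -0.74 to 0.67 among stretches of few members and lie between 0.00 and 0.25 in all 24 stretches of 100 or more members.

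Stretches were also set beside the rest of the autosomes, cut into 19389 windows of 100 kb with at least 10 regions outside the stretches and fitted together with them. In this fit 23 stretches (5.75%) were higher and none lower, against 2.49% and 4.25% of the windows. Windows whose regions had 50 to 60 neighbours on average were called higher more often than the stretches, at 8.91% (0.488% lower). So were windows with 40 to 50, at 7.54% (0.381% lower), whereas windows with under 10 had 0.197% higher and 11.7% lower. The windows were added after the data were seen.

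The 39 stretches called higher lay on 13 chromosomes and had 9 to 170 members with a median of 56. Their log2 fold changes were 0.12 to 0.40 with a median of 0.21, and 26 of them had groups that were fully apart. With the discarded rats included they stayed above 0 in each case, at 0.04 to 0.27, but the groups were then apart in 6. A member called higher was held by 25 of the 39 and by 38 of the other 361 stretches, which is a description only, since the same tags chose the stretches and the called ones were larger (median of 56 against 19 members).

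Chromosome 12 had 8 of these stretches. The smallest, chr12:32408462-32452922, had 9 members and the highest log2 fold change of the 39 (0.40 ± 0.11, SE of the fit). The others were chr12:32670963-32745840 (0.22), chr12:33580842-33636223 (0.21), chr12:35720400-35901537 (0.19), chr12:40021036-40068669 (0.26), chr12:41827926-42035485 (0.12), chr12:42217031-42310921 (0.24) and chr12:44273090-44485226 (0.25).

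Chromosome 5 had 6 called stretches, at chr5:144977415-145032428 (log2 fold change 0.27), chr5:153308629-153397176 (0.23), chr5:154278779-154376440 (0.24), chr5:165939081-166084441 (0.20), chr5:169626058-169816351 (0.22) and chr5:170518419-170580515 (0.19). Chromosome 3 had 5, of which 2 lay near its start, at chr3:10335730-10392650 (0.21) and chr3:10944144-11041232 (0.25), and 3 near its end, at chr3:158907864-159047568 (0.15), chr3:163711709-163986627 (0.20) and chr3:164267543-164508817 (0.15). Chromosomes 19 and 20 had 4 each. Those of chromosome 19 were chr19:10323148-10432327 (0.22), chr19:52286277-52476283 (0.24), chr19:54499423-54624048 (0.18) and chr19:55510902-55649701 (0.25), and those of chromosome 20 were chr20:5279548-5420956 (0.23), chr20:6139143-6303051 (0.17), chr20:7088646-7169261 (0.27) and chr20:9100303-9283624 (0.16).

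The other called stretches were single or paired on their chromosomes. Pairs lay on chromosome 8 at chr8:118825205-118880176 (0.19) and chr8:119581059-119647973 (0.19), on chromosome 10 at chr10:102560249-102632193 (0.17) and chr10:108024631-108115175 (0.27), on chromosome 16 at chr16:6680977-6758312 (0.17) and chr16:81500477-81570955 (0.16), and on chromosome 17 at chr17:14214156-14272405 (0.20) and chr17:14615983-14666153 (0.22). Single ones were chr1:96707005-96836692 (0.17), chr6:137692320-137765846 (0.23), chr7:136015550-136150807 (0.15) and chr9:105446601-105521642 (0.16). Within 10 Mb of the last region of their chromosome were 19 of the 39, and 102 of the other 361 stretches.

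The 5 stretches with most members did not all differ between the groups. Values are tags summed over the members of a stretch, given as CPM after scaling to the TMM library size. The largest, chr3:160370699-160884036 (345 members), had 942, 926, 898 and 913 CPM in control rats 1, 3, 4 and 5 and 943, 948, 963 and 940 CPM in SE rats 6, 8, 9 and 10. The values of the 8 rats lay within a narrow band, and control rat 1 overlapped SE rat 10. The log2 fold change was 0.04 ± 0.03 (SE; edgeR's quasi-likelihood test, adjusted p = 0.443), and it was -0.05 when scaled to the member total. SE rat 7 was far above this band with 1242 CPM, and control rat 2 was below it with 872 CPM.

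The stretch chr20:12466161-12786140 (196 members) had 608, 580, 575 and 557 CPM in controls and 591, 595, 645 and 624 CPM in SE rats, in the same order of rats. Control rat 1 lay above SE rats 6 and 8, and the log2 fold change of 0.08 ± 0.04 did not pass (adjusted p = 0.171, edgeR's quasi-likelihood test), with -0.01 when scaled to the member total. Without control rat 1 it was 0.11 (adjusted p = 0.0184, edgeR). The stretch chr8:124349221-124683088 (167 members) had 516, 483, 454 and 518 CPM in controls and 532, 498, 552 and 540 CPM in SE rats. SE rat 8 lay below control rats 1 and 5, and the log2 fold change was 0.11 ± 0.04 (adjusted p = 0.105, edgeR), or 0.13 without control rat 1 (adjusted p = 0.0147, edgeR). The stretch chr12:7198159-7488811 (167 members) had 413, 414, 421 and 396 CPM in controls and 434, 421, 447 and 435 CPM in SE rats. SE rat 8 and control rat 4 met at 421 CPM, and the log2 fold change was 0.08 ± 0.04 (adjusted p = 0.211, edgeR), or -0.02 when scaled to the member total.

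The fifth of these large stretches, chr3:163711709-163986627 (170 members), was higher in SE and also among the 3 stretches with the smallest p. Controls had 493, 466, 437 and 449 CPM and SE rats 523, 513, 541 and 548 CPM, so every SE rat lay above every control. The log2 fold change was 0.20 ± 0.04 (adjusted p = 0.00112, edgeR's quasi-likelihood test), and 75 of its 98 tested members were above 0, with 3 called higher. In the joint fit with the 100 kb windows it missed the threshold (adjusted p = 0.057, edgeR). The discarded control rat 2 had 574 CPM, above all 4 SE rats compared, and SE rat 7 had 629 CPM.

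The stretch with the smallest p was chr12:44273090-44485226 (119 members, 212 kb), 2.30 Mb before the last region of chromosome 12. Controls had 302, 280, 258 and 272 CPM and SE rats 318, 337, 322 and 342 CPM. The groups did not overlap, and the log2 fold change was 0.25 ± 0.05 (adjusted p = 0.00112, edgeR's quasi-likelihood test). Of its 63 tested members 49 were above 0, and 3 were called higher. Here SE rat 7 (305 CPM) lay below the other SE rats and control rat 2 (343 CPM) above them.

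Next was chr10:108024631-108115175, a shorter stretch (59 members, 90.5 kb) with more of its length covered by members (53.5%). Controls had 213, 185, 174 and 189 CPM, and SE rats 228, 223, 235 and 231 CPM. The groups were apart, and the log2 fold change was 0.27 ± 0.05 (adjusted p = 0.00112, edgeR's quasi-likelihood test). None of its 43 tested members was called on its own, while 36 of them were above 0. Scaled to the member total, these 3 stretches with the smallest p had log2 fold changes of 0.11, 0.15 and 0.17 in the order given, each with adjusted p = 0.0212 by edgeR. With all 10 libraries they were 0.18, 0.15 and 0.25, with adjusted p of 0.329, 0.36 and 0.326 by edgeR.

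No stretch was called lower in SE, and the 3 with the smallest p in that direction were of 35 to 47 members. The stretch chr8:56887010-56941114 (37 members) had 90.4, 86.0, 108 and 96.8 CPM in controls and 81.4, 81.1, 90.5 and 88.8 CPM in SE rats, with overlap and a log2 fold change of -0.15 ± 0.07 (adjusted p = 0.151, edgeR). The stretch chr13:97605122-97667712 (47 members) had 105, 109, 105 and 116 CPM in controls and 98.0, 95.1, 103 and 102 CPM in SE rats, with -0.13 ± 0.06 (adjusted p = 0.184, edgeR). It was the only stretch of the 400 in which every SE rat lay below every control. The stretch chr4:174906331-174955076 (35 members) had 97.2, 91.7, 99.9 and 88.7 CPM in controls and 90.9, 83.5, 83.5 and 87.7 CPM in SE rats, with overlap and -0.12 ± 0.07 (adjusted p = 0.227, edgeR). Scaled to the member total all 3 passed as lower, at -0.25, -0.22 and -0.22 (adjusted p = 0.0329, 0.0275 and 0.0434, edgeR). With all 10 libraries the first and the second turned to 0.03 and 0.05.

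**Figure D5:**
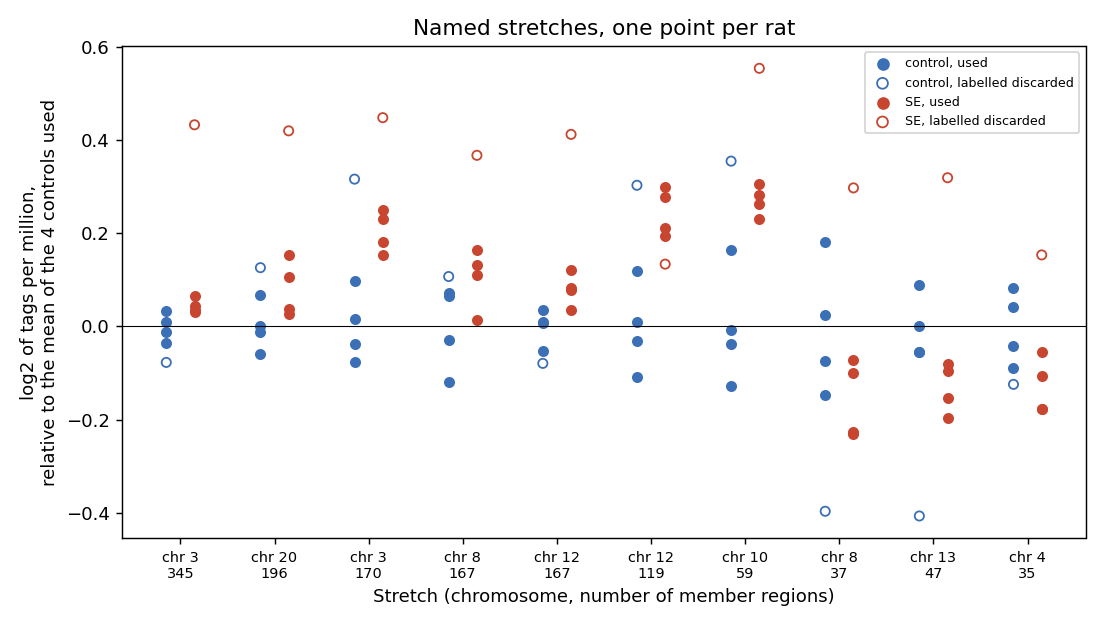
Summed tags of 10 stretches, as log2 of CPM relative to the mean of the 4 controls compared (vertical axis), with 1 point per rat, controls in blue, SE rats in red and rats labelled discarded as open circles; stretches are named by chromosome and number of members (horizontal axis). SE rats lie above every compared control in the chromosome 3 stretch of 170 members, the chromosome 12 stretch of 119 and the chromosome 10 stretch of 59, and below every compared control in the chromosome 13 stretch of 47.

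Among single regions, the most crowded of all was chr3:160638535-160638785, with 82 neighbours inside the largest stretch. It is 251 bp long and held 1 to 8 tags in each of the 8 libraries, so it did not reach the filter and was not tested. Crowding of regions thus did not go with many tags there.

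The 3 members with the smallest p among those higher in every SE rat came from 3 stretches. Region chr4:183058818-183059458 (641 bp) had 11, 0, 9 and 10 tags in control rats 1, 3, 4 and 5 and 23, 17, 25 and 29 tags in SE rats 6, 8, 9 and 10. It had 5.24 ± 0.831 CPM in SE rats and 1.76 ± 1.2 CPM in controls (SD, n = 4 each), with a log2 fold change of 1.55 ± 0.35 (SE; edgeR's quasi-likelihood test, adjusted p = 0.19). The lowest summed count that passed the filter was 70, and this region reached it only through its higher SE counts. The discarded rats went against this order, with 30 tags in control rat 2 and 8 in SE rat 7, and with all 10 libraries the log2 fold change was 0.67 and the limit of 0.01 was missed.

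The remaining pair of these members kept their order with the discarded rats. Region chr16:6332387-6333410 (1024 bp) had 19, 18, 12 and 16 tags in controls and 39, 26, 22 and 47 in SE rats, with a log2 fold change of 0.94 ± 0.25 (edgeR's quasi-likelihood test, adjusted p = 0.423). Region chr8:118846952-118847521 (570 bp), within a stretch called higher, had 2, 5, 6 and 7 tags in controls and 16, 10, 17 and 15 in SE rats, with 1.44 ± 0.41 (edgeR, adjusted p = 0.467). In both regions, each of the 5 SE rats of the labels had a higher CPM than each of the 5 controls. The chr8 region, however, also reached the filter only through its higher SE counts.

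The 3 members with the smallest p among those lower in every SE rat no longer passed the limit of 0.01 when single rats were left out. Region chr15:59799298-59800336 (1039 bp) had 21, 29, 35 and 26 tags in controls and 21, 13, 15 and 20 in SE rats, with a log2 fold change of -0.77 ± 0.26 (edgeR's quasi-likelihood test, adjusted p = 0.551). Region chr12:42474382-42475042 (661 bp) had 19, 18, 31 and 23 tags in controls and 14, 16, 10 and 14 in SE rats, with -0.83 ± 0.29 (edgeR, adjusted p = 0.572). Without control rat 4 their values were both -0.60, and with all 10 libraries, where both missed the limit, -0.63 and -0.88. The first also missed the limit without control rat 3 (-0.73), SE rat 8 (-0.68) or SE rat 9 (-0.74), and the second without SE rat 9 (-0.74) or SE rat 10 (-0.76).

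The last of them, chr9:101471518-101472051 (534 bp), lies in an intron of Efna5. The study lists this same interval as decreased in its amygdala stimulation and pilocarpine models, so its direction here is no independent evidence. Efna5 encodes ephrin-A5, a membrane-bound ligand of Eph receptors with a known part in axon guidance. The region had 11, 21, 14 and 21 tags in controls and 5, 11, 7 and 12 in SE rats, with a log2 fold change of -1.01 ± 0.35 (edgeR's quasi-likelihood test, adjusted p = 0.566), and the groups were apart by CPM also with the discarded rats. With all 10 libraries the log2 fold change was -0.87 and the limit of 0.01 was missed. It missed the limit without control rat 3 (-0.86), control rat 5 (-0.95), SE rat 6 (-0.83) or SE rat 9 (-0.94). A second Efna5 region, chr9:101417771-101419247, with 73 neighbours, had 37, 29, 18 and 30 tags in controls and 26, 30, 29 and 31 in SE rats, which gave a log2 fold change of -0.05 ± 0.23 (edgeR, adjusted p = 0.985). Both belong to the stretch chr9:101382805-101496844 (75 members), which had 209 ± 16.5 CPM in controls and 203 ± 11 CPM in SE rats (adjusted p = 0.661, edgeR), and 18 of its 42 tested members were above 0.

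Another 4 genes served as place names, since the study had annotated a region in or beside a dense stretch to them. The study chose these regions by their calls in this or another model, so their values are no independent evidence of a direction. Slc39a11, a zinc transporter gene that lies between Sox9 and Sstr2 in the GRCr8 assembly, marked the stretch chr10:102951016-103136229 (127 members). This stretch had 331, 326, 288 and 302 CPM in controls and 335, 329, 367 and 340 CPM in SE rats, which gave a log2 fold change of 0.14 ± 0.05 that fell short of the threshold (adjusted p = 0.0547, edgeR). SE rat 8 lay below control rat 1. The Slc39a11 region chr10:103021764-103022737 had 13, 5, 10 and 11 tags in controls and 14, 16, 16 and 27 in SE rats, with no overlap by CPM and a log2 fold change of 0.81 ± 0.33 (edgeR's quasi-likelihood test, adjusted p = 0.64).

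Dcun1d2, whose product takes part in attaching NEDD8 to cullins and which lies between Tmco3 and Adprhl1 in GRCr8, marked chr16:81083274-81175366 (62 members). Its region chr16:81113554-81114091 was called higher, with 10, 6, 3 and 7 tags in controls and 10, 20, 15 and 16 in SE rats and a log2 fold change of 1.14 ± 0.39 (edgeR's quasi-likelihood test, adjusted p = 0.549). SE rat 6 and control rat 1 overlapped. This region, too, reached the filter only through its higher SE counts. The stretch around it had 210 ± 11.7 CPM in controls and 225 ± 3.64 CPM in SE rats (adjusted p = 0.192, edgeR). In the stretch chr15:24243046-24338569 (60 members), which holds a region of Peli2, a gene of the pellino family of ubiquitin ligases, the values were 153 ± 7.75 and 160 ± 4.01 CPM (adjusted p = 0.504, edgeR). Near Auh, which encodes an RNA-binding enzyme of leucine breakdown and whose region lay 4.93 kb outside the stretch chr17:18149089-18179162 (22 members), they were 59.8 ± 2.42 and 60.7 ± 5.42 CPM (adjusted p = 0.868, edgeR).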

How the data were processed

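MBD-captured DNA of 10 rats was sequenced, with 1 library per rat. The deposited values are raw tag counts per region: the authors aligned tags to RN4 with BWA, compared the libraries pair by pair with MACS, merged the differing regions with BEDTools, removed duplicates and counted tags, without normalization. The table thus holds regions that differed between some pair of libraries, and the density of regions is a density of such regions.

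Neighbours were counted over midpoints of all regions of a chromosome. The counts of 291987 regions at or above the 50th percentile of the summed count were scaled by TMM, and edgeR's quasi-likelihood test was applied (version 4.0.16, R 4.3.3; alternatives with DESeq2 1.42.0 and limma 3.58.1), two-sided, without covariates, at an unadjusted p below 0.01 and a Benjamini-Hochberg adjusted p below 0.05. Stretch totals are sums over all members, without a filter, tested in the same way with the library sizes of that fit. CPM of the discarded libraries were put on the scale of the 8 compared. Standard errors were derived from the fold change and its F statistic (log2 fold change over root F). Single values per library were compared by exact two-sided permutation tests (scipy 1.17.1). The p-values of stretches are not independent of each other, since all stretches share the trend of each library on density.

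Named stretches were the 5 with most members and the 3 with the smallest p in each direction. Named regions were the member with most neighbours and, among members with p below 0.01 and groups that did not overlap, the 3 with the smallest p in each direction. The stretches listed by size or because they were called, and the regions of landmark genes, were chosen after values were seen. Members and lists were chosen with earlier results of these data known. Landmark genes came from intronic positions the study annotated and RefSeq gene order in GRCr8. No genome of RN4 was used, so sequences and other annotations of the regions were not analysed here. Median depth is about 9.88 tags per member and library, so single members carry large counting error. On simulated counts for the 291987 regions the fit called 56% of regions with a true log2 difference of 1 and 98% of those with 2 at p below 0.01, with 0.952% of unchanged regions. On simulated counts for the 400 stretches, adjusted p below 0.05 was reached by all stretches changed by 1 or 2 and by 3.00% of unchanged ones. The stretches called higher differed by only 0.125 to 0.396, and the simulated counts held no shared trend on density. Neither share therefore applies to the 39 calls.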

Additional observations from a re-analysis of the deposited data

Results flagged for a closer look

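In the member chr12:42474382-42475042, control rat 4 stood apart from the other controls with 8.02 CPM, where the others had 4.59, 4.45 and 4.76 CPM. In the log2 ratio of tags in members to tags in regions with 50 to 59 neighbours, SE rat 8 stood apart from the other SE rats at -1.87, where the others had -1.85. Both passed Dixon's 95% limit for 4 samples (0.829), which flags about 1 in 20 groups by chance. Among the libraries labelled discarded, which the comparisons did not use, the share of autosomal tags in members was 2.77% in control rat 2 and 3.60% in SE rat 7, against 2.69% in the highest of the 4 controls compared.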

How the results depend on the processing

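The share of tags in members kept its direction under every alternative run, and its log2 difference was 0.09 to 0.14 with 1 rat left out. The ratios to the 6 other density classes kept theirs too, at 0.29 to 0.43, 0.20 to 0.30, 0.11 to 0.16, 0.05 to 0.08, 0.03 to 0.04 and 0.01 to 0.02 from the sparsest class up. With all 10 libraries they were 0.49, 0.35, 0.2, 0.113, 0.064 and 0.03 in the same order (exact permutation test, p = 0.0397, 0.0556, 0.0635, 0.0317, 0.0238 and 0.0317, not adjusted for the 6 ratios). The groups overlapped in each of the 6. The discarded SE rat 7 stood far above the other SE rats, with a log2 ratio to the sparsest class of -0.022 against -1.216 to -0.994.

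Members called higher and lower numbered 25 (0.314%) and 0 with DESeq2, against 0.139% and 0.349% of all tested regions. With density and count offsets they numbered 34 (0.426%) and 32 (0.401%), against 0.553% and 0.682%. With all 10 libraries they numbered 40 (0.463%) and 3 (0.0347%), against 0.282% and 0.215%. In the main fit, with 0.584% and 1.07% of all regions, there were 338 (0.905%) and 57 (0.153%) at 50 or more neighbours. At 70 or more there were 11 (1.44%) and 0. There were 30 higher (1.06%, against 0.618% of all) with at least 10 counts in every library, and 14 lower (0.105%, against 0.856%) without a filter. With 1 rat left out 59 to 94 were higher (0.742% to 1.19%, against 0.508% to 0.684% of all). In those fits 6 to 10 were lower (0.0742% to 0.128%, against 0.788% to 1.32%). No alternative gave a member with an adjusted p below 0.05 (0 to 0 with 1 rat left out).

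Of the 400 stretches 39 (9.75%) were called higher in the main fit. The number was 25 (6.25%) with DESeq2, 8 (2.0%) scaled to the member total and 0 with all 10 libraries. Fitted with the windows it was 23 (5.75%), or 0 with all 10. With 1 rat left out it was 15 to 90 (3.75% to 22.5%, the latter without control rat 1). At 50 or more neighbours 182 of 1403 stretches (13.0%) were called higher, and at 70 or more 5 of 58 (8.62%). Stretches called lower numbered 4 (1.0%) scaled to the member total, 4 (0.285%) at 50 or more neighbours and 0 to 0 with 1 rat left out. The log2 fold changes of chr3:160370699-160884036, chr20:12466161-12786140 and chr12:7198159-7488811 turned to -0.05, -0.012 and -0.016 when scaled to the member total, which takes out the common shift by construction, and those of chr8:56887010-56941114 and chr13:97605122-97667712 turned to 0.027 and 0.052 with all 10 libraries. The cause was not tested for the other changes. No paired analysis was possible because no rat number occurs in both groups. Low tag counts per member limit single regions more than stretches.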
